A study of Mus musculus with 6 samples.

Results

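The circadian clock genes Per1, Per2, Per3, Cry1, Cry2, Arntl, Clock, Nr1d1, Nr1d2 and Dbp were followed in murine oviductal epithelial (MOE) cells before and after long culture. These 10 genes were chosen by name, as the core of the clock, from the 22800 gene symbols of the files, and 10 of 10 were present, each under a single entry. RNA was sequenced from 3 libraries of MOE low cells (passages 8, 9 and 10) and from 3 libraries of MOE high cells (passages 90, 103 and 113), and the study asked which transcripts changed when oviductal cells were passaged until they transformed. Both groups belong to 1 line of cells that the authors pooled from the oviducts of several 8-week-old female mice of the outbred CD1 strain, are labelled with no engineered allele, and grew in medium with serum, growth factor, insulin and estradiol. The MOE high cells were made from the MOE low cells by serial passage, so each library is a different passage of 1 line and a p-value measures the spread between these passages. The hour of harvest and the time since the last change of medium are not given in the sources used here, so the phase of the clock at harvest and the passage cannot be told apart.

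In mammalian cells the circadian clock is a loop of transcription and feedback. The proteins of Clock and Arntl (also known as BMAL1) bind together to E-boxes, short DNA elements, and activate the Per and Cry genes, whose proteins return to the nucleus and inhibit them. Nr1d1 and Nr1d2, which are also E-box targets, encode the nuclear receptors REV-ERB alpha and beta and repress Arntl, while the transcription factor of Dbp drives output genes through D-boxes. Cultured fibroblasts and epithelial cells run this loop cell by cell, serum or hormone can align the cells for some days, and the oviduct has a clock of its own in the living animal.

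The letters through which these factors act are shown first, because the genes that carry them are compared below. Promoter windows from 250 bases before to 50 bases after an annotated start were taken from RefSeq (GRCm38.p6, the build also called mm10). A window was available for 9 of the 10 core genes, all but Per2, with 13 windows in all. Both strands were searched for the E-box CACGTG, its variant CACGTT, the D-box forms TTATGTAA and TTACGTAA, the full REV-ERB and ROR element (RORE) and the cyclic AMP element TGACGTCA. These were found in 7.15%, 4.68%, 0.938%, 0.119%, 0.219% and 1.79% of all 32851 windows, in that order. Among the core genes the perfect E-box lay in the windows of Per1 and Cry1, the variant in those of Cry1, Cry2 and Nr1d1, and the D-box in that of Per3. The stretches before the start are given 5′ to 3′ on the strand of the gene with the matched letters in capitals, where AACGTG is CACGTT read on the other strand, and no 2 matches in a window shared a base.
Per1 (chr11:69098758-69098813, plus strand, 1 perfect E-box): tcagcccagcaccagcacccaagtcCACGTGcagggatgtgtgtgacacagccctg
Cry1 (chr10:85185084-85185158, minus strand, 1 variant and 1 perfect E-box): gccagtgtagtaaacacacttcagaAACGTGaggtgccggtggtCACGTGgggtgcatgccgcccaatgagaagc
Cry2 (chr2:92434205-92434260, minus strand, 1 variant E-box): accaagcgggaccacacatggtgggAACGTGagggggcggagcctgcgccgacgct
Nr1d1 (chr11:98775378-98775430, minus strand, 1 variant E-box): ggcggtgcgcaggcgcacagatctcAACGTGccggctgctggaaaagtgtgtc
Per3 (chr4:151044791-151044895, minus strand, 2 D-boxes): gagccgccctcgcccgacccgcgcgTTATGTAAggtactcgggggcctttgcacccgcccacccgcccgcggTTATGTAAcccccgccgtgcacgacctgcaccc
A RORE, AAGTAGGTCA, lay 28 bases after the second of the 2 annotated starts of Arntl, and the windows of Clock, Nr1d2 and Dbp held none of the letters searched. A match is a description of these letters and not a bound site, and a window without a match says nothing of the factor.

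Expression was deposited as FPKM, fragments per kilobase of transcript scaled to the fragments of the library, so levels can be compared between genes. Between libraries a comparison also depends on the scaling, as summed FPKM ran from 597161 (passage 113) to 770438 (passage 90). In 6 of 6 tables the column heading did not match the library's passage, so the passage rests on the library's record alone. Between 10208 and 10987 genes reached 1 FPKM in a library. The markers fixed for oviductal secretory cells, Pax8 and Ovgp1, were detected in 6 of 6 libraries. The epithelial genes Epcam, Cdh1, Cldn3 and Cldn4 were under 0.2 FPKM in all libraries, though the cells are labelled epithelial, and of the keratin genes Krt7, Krt8, Krt18 and Krt19 2 were called higher and 0 lower. Other cell type markers moved with the groups, where 24.3% of all tested genes were called higher and 32.1% lower. Of 5 smooth muscle genes 4 could be tested and 4 were called lower in MOE high, and the summed level of the 5 went from 7687 to 11031 FPKM across MOE low libraries to 9.33 to 17.9 FPKM. For 6 fibroblast genes, of which 5 could be tested and 4 were called lower, the sums were 590.1 to 976 FPKM and 22.4 to 32.7 FPKM. Of 4 endothelial genes 1 could be tested and was called lower, with sums of 1.88 to 3.68 FPKM and of at most 0.00998 FPKM, and Cdh5 was listed at 0 throughout. The tested gene reached the mean of 0.5 FPKM needed for testing only through MOE low, so lower was the only call open to it. For 4 leukocyte genes, of which 1 could be tested and 0 were called, the sums were 1.44 to 2.24 FPKM and 1.35 to 1.72 FPKM, with Emr1 and Cd3e listed at 0. The 4 proliferation genes were called higher, with sums of 182 to 211 FPKM and 299.8 to 352 FPKM. In bulk RNA fewer cells of a type and less RNA per cell cannot be told apart, and the part of these shifts in the values below was not tested.

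None of the 10 core clock genes passed the test between MOE low and MOE high. With limma on log2(FPKM + 1), 0 of 10 were called higher and 0 lower at an adjusted p of 0.05, where 56.4% of the 11621 genes tested across the transcriptome were called (24.3% higher and 32.1% lower). At an unadjusted p under 0.05 the count was also 0 of 10, against 61.0% of all genes, and without a variance trend limma called 0 as well. The share of all genes called was 49.0% without the library of passage 103 and 65.8% without that of passage 113. In the values as deposited the groups did not overlap for 1 of the 10, Arntl, where they did not overlap for 64.0% of all genes. The differences on the log2 scale (MOE high minus MOE low, called log2 differences from here on) ran over the 10 genes from -0.31 (Clock) to 0.35 (Nr1d2), with a median of 0.08 and a median absolute size of 0.13. Over all tested genes the median was -0.05 and the median absolute size 0.44. The mean FPKM of Per1, Cry1, Cry2 and Dbp stayed within 10% between the groups. A p that misses the threshold does not show equal levels, and the 95% intervals of the difference reached from -0.81 to 0.72 for the widest, Per1, and from -0.09 to 0.42 for the narrowest, Arntl. This scale adds 1 FPKM to each value and understates the change of genes as low as these.

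**Figure D1:**
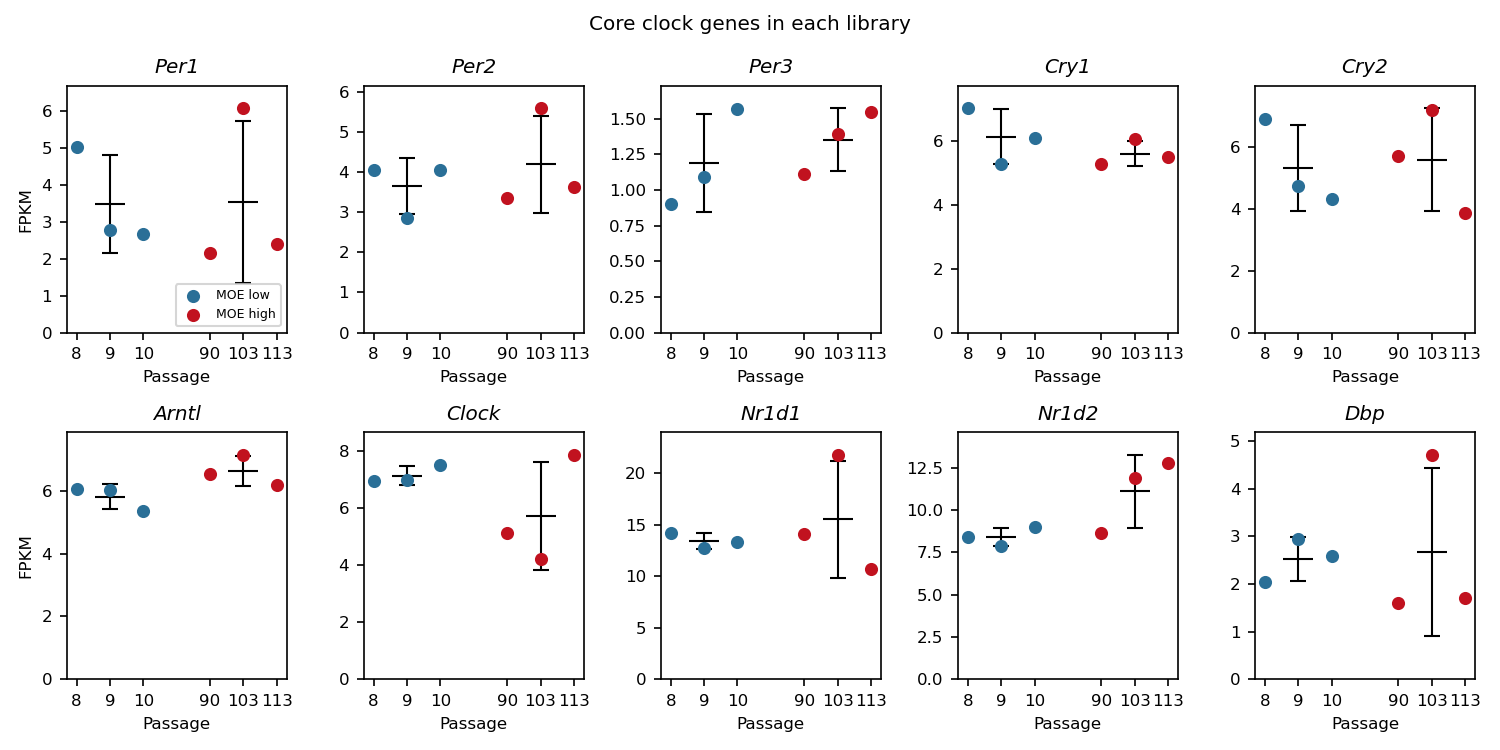
FPKM of each core clock gene (vertical axes from 0) in each library by passage, with MOE low in blue and MOE high in red; horizontal dashes are group means and bars are SD over 3 passages. The groups overlap for each gene but Arntl, and the library of passage 103 holds the highest MOE high value of Per1, Per2, Cry1, Cry2, Arntl, Nr1d1 and Dbp.

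**Figure D2:**
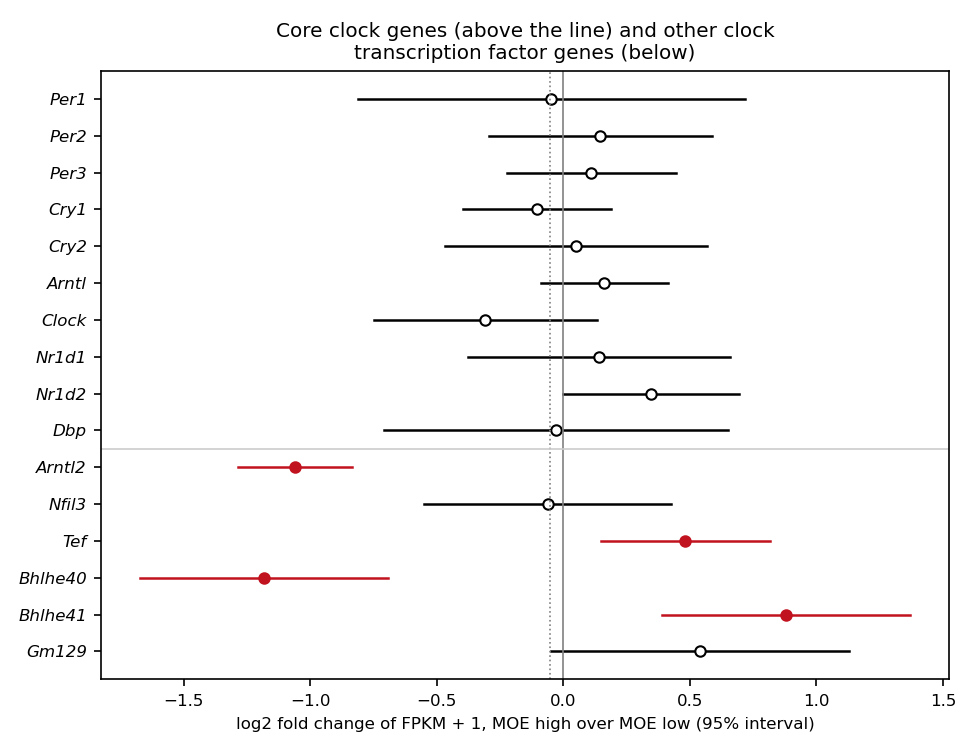
Log2 fold change of FPKM + 1 from MOE low to MOE high (horizontal axis) with its 95% interval for the 10 core clock genes and, below the line, the 6 other clock transcription factor genes that reached the minimum level; filled red points passed the test and the dotted line is the median of all tested genes. The intervals of all 10 core genes include 0, while Arntl2 and Bhlhe40 lie below 0 and Tef and Bhlhe41 above it. Arntl2 reached the minimum level only through MOE low.

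Of the activators, Arntl (chr7:113178471-113314126 in mm10, plus strand) was at 6.06, 6.03 and 5.35 FPKM in the MOE low libraries and at 6.55, 7.15 and 6.18 FPKM in MOE high libraries. As deposited, each MOE high value was above each MOE low value, but by little. The groups overlapped with libraries scaled to equal totals or by the upper quartile. The means were 5.81 ± 0.400 and 6.63 ± 0.486 FPKM (SD, n = 3), which is a log2 difference of 0.16 (SE 0.11, limma adjusted p = 0.24). Clock (chr5:76209868-76305603, minus strand) was at 6.93, 6.96 and 7.51 FPKM in the MOE low libraries and at 5.11, 4.22 and 7.86 FPKM in MOE high libraries. Passages 90 and 103 lay below the MOE low range and passage 113 above it. Its log2 difference was -0.31 (SE 0.19, limma adjusted p = 0.20), and without the library of passage 113 it was called lower at -0.52 (limma adjusted p = 0.0050).

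The relatives of these activators were low or changed. Arntl2, a paralog of Arntl whose protein also pairs with CLOCK, was at 1.23, 1.08 and 1.08 FPKM in the MOE low libraries and at 0, 0.0345 and 0.0299 FPKM in MOE high libraries. The groups did not overlap, and Arntl2 fell by 1.06 on the log2 scale (SE 0.10, limma adjusted p = 6.1e-05). It reached the mean of 0.5 FPKM needed for testing only through MOE low. Its means were 1.13 FPKM in MOE low, 0.0215 FPKM in MOE high and 0.575 FPKM over all libraries. At such levels the added 1 FPKM sets the size, which was -5.45 with 0.01 added instead. Npas2, which can take the place of Clock, was at no more than 0.0137 FPKM in any library.

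The period genes, whose proteins carry the negative feedback with the cryptochromes, overlapped between the groups, and Per1 had the widest spread of the 10. Per1 (chr11:69095108-69109965, plus strand) was at 5.01, 2.76 and 2.67 FPKM in the MOE low libraries and at 2.14, 6.06 and 2.39 FPKM in MOE high libraries. In each group a single library, passage 8 and passage 103, stood well above the other two. The means were 3.48 ± 1.33 and 3.53 ± 2.19 FPKM (SD, n = 3), with a log2 difference of -0.05 (SE 0.33, limma adjusted p = 0.91) against a slightly higher mean FPKM in MOE high. Its sign turned without the library of passage 8, 90 or 113 (0.11 to 0.18). Per2 (chr1:91415977-91459351, minus strand) was at 4.06, 2.85 and 4.04 FPKM in the MOE low libraries and at 3.35, 5.59 and 3.64 FPKM in MOE high libraries. Passage 103 was again the highest, and the rest of MOE high lay inside the MOE low range. Its log2 difference was 0.15 (SE 0.19, limma adjusted p = 0.54), and -0.038 without that library. Per3 (chr4:150997018-151044707, minus strand) was the lowest of the 10 genes at 0.905, 1.09 and 1.57 FPKM in the MOE low libraries and 1.11, 1.40 and 1.55 FPKM in MOE high libraries. These values lay inside the same range, and passage 103 did not stand out (log2 difference 0.11, SE 0.14, limma adjusted p = 0.54). Uts2, which overlaps Per3, was listed at 0 throughout.

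The cryptochromes, whose proteins carry out the repression of CLOCK and ARNTL, also overlapped between the groups. Cry1 (chr10:85131700-85185054, minus strand) was among the steadiest of the 10, at 7.01, 5.28 and 6.07 FPKM in the MOE low libraries and 5.28, 6.04 and 5.48 FPKM in MOE high libraries. The lowest value was 5.28 FPKM in both groups and the highest was in MOE low, and the log2 difference was -0.10 (SE 0.13, limma adjusted p = 0.50). Cry2 (chr2:92403646-92434085, minus strand) was at 6.88, 4.74 and 4.30 FPKM in the MOE low libraries and 5.70, 7.17 and 3.86 FPKM in MOE high libraries. As for Per1, passages 8 and 103 were the highest of their groups. The means were 5.31 ± 1.38 and 5.58 ± 1.66 FPKM (SD, n = 3), and the log2 difference was 0.05 (SE 0.22, limma adjusted p = 0.86), with a sign that turned without the library of passage 9, 10 or 103 (-0.12 to -0.0079). The noncoding gene D930015M05Rik, which overlaps Cry2, reached at most 0.210 FPKM.

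The REV-ERB genes were the most abundant of the core genes. Nr1d1 (chr11:98767932-98775377, minus strand) was at 14.2, 12.7 and 13.4 FPKM in the MOE low libraries and at 14.1, 21.8 and 10.7 FPKM in MOE high libraries. MOE low was tight, while passages 103 and 113 lay above and below its range. The log2 difference was 0.14 (SE 0.22, limma adjusted p = 0.61), and -0.12 without the library of passage 103. The end of Nr1d1 shares 1075 bases with the thyroid hormone receptor gene Thra on the other strand, and whether counting used strand is not given in the sources used here. Thra was at 8.75, 8.03 and 11.2 FPKM in the MOE low libraries and 7.58, 12.5 and 15.6 FPKM in MOE high libraries, so it was highest in passage 113, where Nr1d1 was lowest, and it did not pass the test (log2 difference 0.28, limma adjusted p = 0.35). Nr1d2 (chr14:18204056-18239106, minus strand) was at 8.39, 7.90 and 8.98 FPKM in the MOE low libraries and at 8.66, 11.9 and 12.8 FPKM in MOE high libraries. Passages 103 and 113 were above the MOE low range and passage 90 was inside it. Its means were 8.42 ± 0.542 and 11.1 ± 2.16 FPKM (SD, n = 3), a log2 difference of 0.35 (SE 0.15, limma adjusted p = 0.083), the smallest adjusted p of the 10. Nr1d2 passed the test without the library of passage 90 (0.50, limma adjusted p = 0.011) and with libraries scaled by the median ratio (0.41, limma adjusted p = 0.044). The ROR genes Rora and Rorb, whose receptors compete with REV-ERB for the same element and activate Arntl, were near the bottom of the data. Rora reached at most 0.420 FPKM (passage 8) and Rorb 0.0408 FPKM.

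The output factor gene Dbp (chr7:45705100-45710203, plus strand) was at 2.03, 2.94 and 2.59 FPKM in the MOE low libraries and at 1.61, 4.71 and 1.70 FPKM in MOE high libraries. Within MOE high the value of passage 103 was 2.93 times that of passage 90, and the other two lay below the MOE low range. The means were 2.52 ± 0.456 and 2.67 ± 1.76 FPKM (SD, n = 3), and the log2 difference was -0.03 (SE 0.29, limma adjusted p = 0.94), again with the opposite order of the mean FPKM. Its sign followed single libraries, at -0.40 without passage 103 and 0.06 to 0.17 without passage 9, 90 or 113. Dbp shares 741 bases with the sphingosine kinase gene Sphk2 on the other strand, which did not pass the test (log2 difference -0.13, limma adjusted p = 0.32). Of the other factors that bind D-boxes, Tef was at 6.39, 6.47 and 7.21 FPKM in the MOE low libraries and at 7.87, 11.4 and 10.2 FPKM in MOE high libraries. The groups did not overlap, and Tef rose by 0.48 on the log2 scale (SE 0.14, limma adjusted p = 0.022). That call was lost without the library of passage 8, 9 or 103 (limma adjusted p = 0.074 to 0.078) and with libraries scaled to equal totals or by the upper quartile (limma adjusted p = 0.12 and 0.059). Hlf was at no more than 0.0472 FPKM. Nfil3, which represses through the D-box, was at 19.7, 11.4 and 12.0 FPKM in the MOE low libraries and 15.6, 13.3 and 11.4 FPKM in MOE high libraries, with overlap of the groups (log2 difference -0.06, SE 0.21, limma adjusted p = 0.82). The sign of Nfil3 turned without the library of passage 8 or 113 (0.17 and 0.041).

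The DEC factors, E-box repressors outside the core list, passed the test in opposite directions. Bhlhe40 (DEC1) was at 78.4, 59.7 and 76.0 FPKM in the MOE low libraries and at 25.7, 43.1 and 25.9 FPKM in MOE high libraries. It fell by 1.18 on the log2 scale (SE 0.21, limma adjusted p = 0.0020), and the groups did not overlap. Bhlhe41 (DEC2) was at 3.37, 3.79 and 4.09 FPKM in the MOE low libraries and at 6.58, 11.4 and 6.08 FPKM in MOE high libraries, a rise of 0.88 (SE 0.21, limma adjusted p = 0.0085). Even after these changes Bhlhe40 remained the more abundant in each of the 6 libraries. Ciart, listed as Gm129 and encoding the repressor CHRONO, was at 2.75, 1.32 and 1.09 FPKM in the MOE low libraries and 2.26, 4.02 and 2.42 FPKM in MOE high libraries. The groups overlapped through passage 8, with a log2 difference of 0.54 (SE 0.25, limma adjusted p = 0.11) that passed the test without that library (0.80, limma adjusted p = 0.020). Bhlhe40 had no promoter window and was not searched. The perfect E-box lay in the windows of Bhlhe41, Ciart and Tef but not in those of Npas2, Arntl2, Rora, Rorb, Nfil3 and Hlf. The stretches of Bhlhe41, Ciart and Tef are shown for comparison with those of Per1 and Cry1.
Bhlhe41 (chr6:145865543-145865598, minus strand, 1 perfect E-box): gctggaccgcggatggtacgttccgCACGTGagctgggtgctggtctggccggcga
Ciart (chr3:95882242-95882369, minus strand, 3 perfect E-boxes): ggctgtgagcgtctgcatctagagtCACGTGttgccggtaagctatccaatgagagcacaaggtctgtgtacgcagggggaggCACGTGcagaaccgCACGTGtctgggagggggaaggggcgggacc
Tef (chr15:81802521-81802576, plus strand, 1 perfect E-box, first of 2 windows): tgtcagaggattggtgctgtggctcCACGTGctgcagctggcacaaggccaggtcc

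Several core clock genes varied widely between passages of 1 group. The SD within groups, on the log2(FPKM + 1) scale, had a median of 0.28 over the 10 genes and of 0.17 over all tested genes. Per1 had an SD of 0.54, above 98.4% of the tested genes, and Dbp one of 0.47, above 97.6% of them. Nr1d1 and Cry2 followed at 0.35 and 0.34, above 92.8% and 92.4%. Arntl was at the other end with an SD of 0.09, above 13.8%. By mean level Per1 lay above 21.7% and Dbp above 16.9% of the tested genes. The spread was not compared with that of genes of similar level. The highest MOE high library exceeded the lowest 2.83 times for Per1, 2.93 times for Dbp and 2.04 times for Nr1d1, where the median over all genes above 0 was 1.36 times and 9.49% of genes exceeded 2. In MOE low the same ratio was 1.88 for Per1, 1.45 for Dbp and 1.12 for Nr1d1, with a median of 1.17 over all genes.

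**Figure D3:**
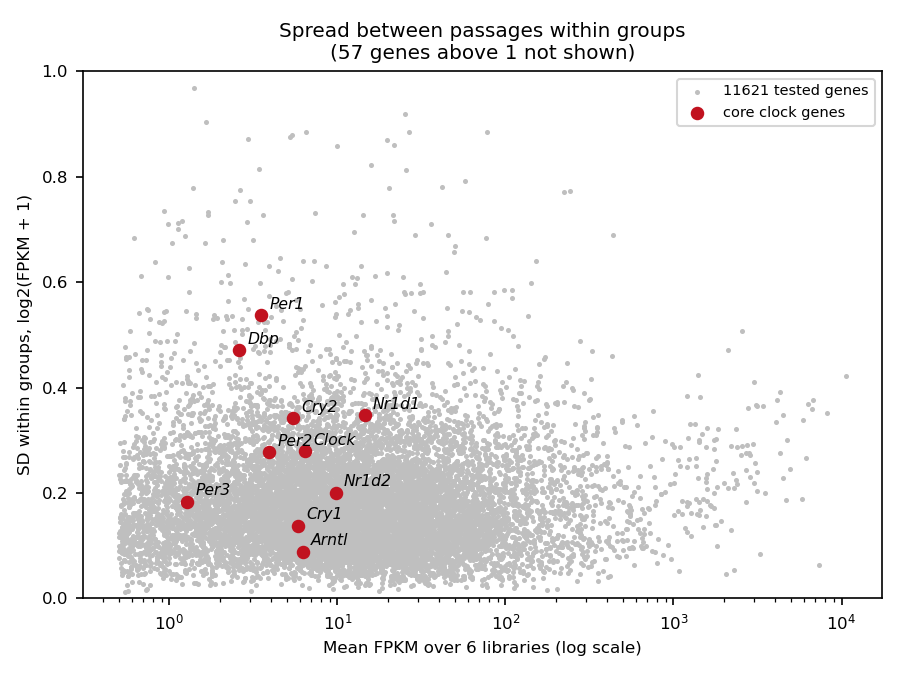
SD within groups of log2(FPKM + 1) (vertical axis) against mean FPKM over the 6 libraries (log scale) for all tested genes in grey and the 10 core clock genes in red; 57 genes with an SD above 1 are not shown. Per1 and Dbp sit high in the cloud, and Arntl and Cry1 below the median of 0.17.

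The swings were shared by several members. In MOE high, passage 103 was the highest library for 7 of the 10 core genes (Per1, Per2, Cry1, Cry2, Arntl, Nr1d1 and Dbp), while it was the highest for 22.0% of all tested genes. It was also the highest for 5 of the 6 other clock factors tested, Nfil3 being the exception, though Arntl2 was near 0 in all of MOE high. At equal totals this count was 3 of 6, with Tef and Arntl2 highest in passage 113. Clock alone among the core genes was lowest in passage 103. With libraries scaled by the upper quartile or the median ratio the count was also 7 of 10 (25% and 23.3% of all genes). With equal totals it was 5 of 10 (16.5% of all genes), with Cry1 and Arntl highest in passage 113. Passage 90 was the highest for 0 of the 10 (35.9% of all genes) and the lowest for 6 of them (33.1% of all genes), and at equal totals the lowest for 7 of 10, where it was so for 54.5% of all genes. On the log2 scale passage 103 stood above the mean of its group by 0.74 for Per1, 0.74 for Dbp, 0.52 for Nr1d1, 0.51 for Bhlhe41, 0.48 for Bhlhe40, 0.39 for Ciart and 0.37 for Per2. In MOE low, passage 8 was the highest for 6 of the 10 (38.2% of all genes). At equal totals this was 3 of 10 (25% of all genes). With the upper quartile or the median ratio it was 4 of 10, near the 36.1% and 36.6% of all genes. Passage 8 stood above its group mean by 0.46 for Per1, 0.51 for Ciart, 0.47 for Nfil3 and 0.34 for Cry2, but Dbp was lowest there at -0.21. These are counts over genes of the same libraries, given without a test.

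**Figure D4:**
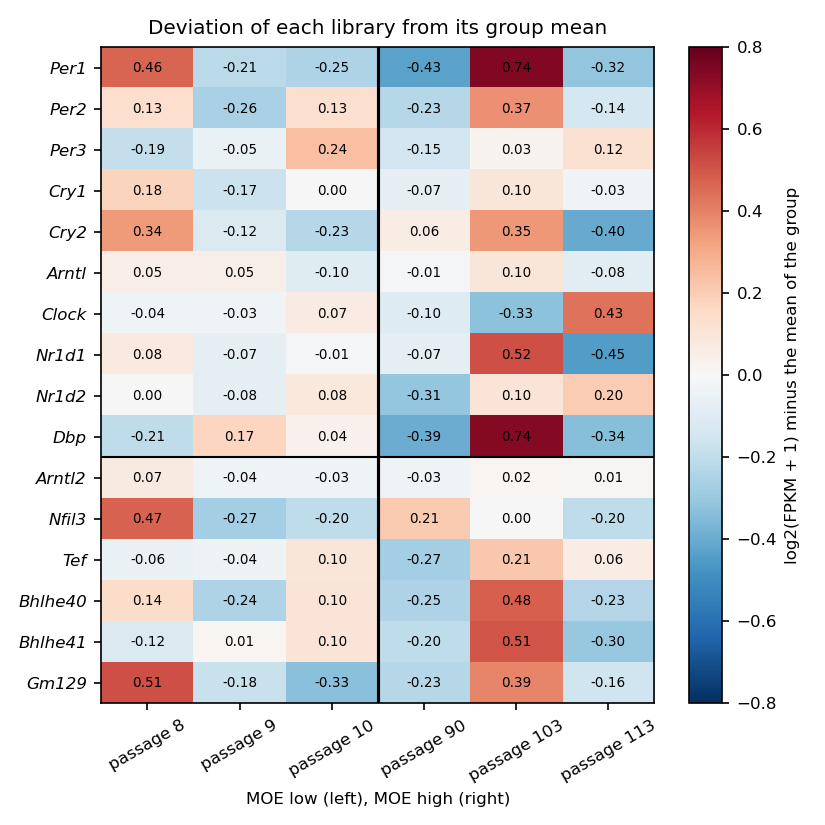
Log2(FPKM + 1) of each library minus the mean of its group (colour and printed value) for the core clock genes (above the line) and the other clock factors (below), with MOE low passages on the left and MOE high passages on the right. Passage 103 is positive for Per1, Per2, Nr1d1, Dbp, Bhlhe40 and Bhlhe41 and at -0.33 for Clock.

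Ordered by mean level per length over the 6 libraries, Nr1d1 came first at 14.5 FPKM and Nr1d2 second at 9.76 FPKM, then Clock at 6.43, Arntl at 6.22, Cry1 at 5.86, Cry2 at 5.44, Per2 at 3.92, Per1 at 3.50, Dbp at 2.60 and Per3 at 1.27 FPKM. Nr1d1 lay near the middle of the tested genes (above 55.7% of them) and Per3 above 8.17%. The ranges of neighbours overlapped except between Nr1d2 and Clock and between Dbp and Per3, so Clock, Arntl, Cry1 and Cry2 cannot be ordered beyond their spread.

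Ratios of FPKM + 1 within a library also overlapped between the groups for 9 of 9 pairs. The log2 ratio of Arntl to Clock was -0.17, -0.18 and -0.42 across MOE low, against 0.31, 0.64 and -0.30 across MOE high. This was the largest shift of the 9, at 0.47 (p = 0.3, two-sided exact permutation test, adjusted p = 1 over 9 pairs). The log2 ratio of Arntl to its repressor gene Nr1d1 averaged -1.08 ± 0.108 in MOE low and -1.06 ± 0.394 in MOE high (SD, n = 3, exact permutation p = 1). That of Cry1 to Cry2 averaged 0.19 ± 0.203 and 0.04 ± 0.334 (SD, n = 3, exact permutation p = 0.5). With 3 libraries in each group this test can give no p below 0.1.

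Beyond the core, 73 genes of the wider clock network were listed by role, 72 were in the files and 63 reached the minimum of 0.5 FPKM. Of these 63, 13 rose, 17 fell and 33 missed the threshold, so 47.6% were called where 56.4% of all genes were. Under a test against a 2-fold change 0 were higher and 2 lower, where 303 of all 11621 tested genes were higher and 907 lower. Of the 6 other clock factors tested, 2 were higher and 2 lower, as described above, and 5 factors of the list of 11 were below the minimum. Of 20 tested genes for kinases, phosphatases and ubiquitin ligases that set the life of PER and CRY proteins, 4 rose, 6 fell and 10 missed the threshold (50% called). Csnk2a2, a catalytic subunit of casein kinase 2, rose from 28.4 ± 1.18 to 57.6 ± 1.61 FPKM (limma adjusted p = 5.5e-05), and the phosphatase gene Ppp1ca from 345 ± 14.3 to 598 ± 38.8 FPKM (SD, n = 3). Prkaa1, an AMP-activated kinase subunit, fell from 20.1 ± 0.997 to 11.9 ± 3.40 FPKM. Gsk3b, a kinase of several clock proteins, fell from 14.8 ± 1.18 to 8.97 ± 3.05 FPKM. The paralogous ligase subunits that mark PER for degradation moved apart, Fbxw11 falling from 21.3 ± 0.703 to 13.4 ± 3.23 FPKM and Btrc rising from 5.58 ± 0.726 to 8.73 ± 1.69 FPKM. The call of Btrc was lost without the library of passage 8, 9 or 103 (limma adjusted p = 0.054 to 0.069) and that of Gsk3b without passage 8, 10, 90 or 103 (limma adjusted p = 0.050 to 0.063), and both were lost at equal totals. For 14 of these 20 genes the library of passage 113 was the highest of MOE high, as it was for Clock, Per3 and Nr1d2, against 42.1% of all genes. The count was 19 of 20 at equal totals (67.5% of all genes) and 12 of 20 with the median ratio (39.0% of all genes).

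Of 18 tested cofactor genes, 7 rose, 1 fell and 10 missed the threshold, so 44.4% were called against 56.4% of all genes. Wdr5, which encodes a chromatin protein found with PER1, rose from 28.8 ± 1.48 to 64.2 ± 1.04 FPKM (SD, n = 3, limma adjusted p = 2.8e-05). Nampt, which makes the precursor of NAD for the clock-linked deacetylase SIRT1, rose from 10.5 ± 0.804 to 22.3 ± 5.06 FPKM. Tipin, the partner of Timeless in DNA replication, rose from 49.9 ± 9.74 to 101 ± 6.67 FPKM. The acetyltransferase gene Kat2b was the single lower gene, at 11.0 ± 0.530 and 5.95 ± 1.37 FPKM. Of 7 tested output genes 0 were higher and 3 were lower (42.9% called, against 56.4% of all genes). Ccrn4l, the gene of nocturnin, fell from 23.6 ± 6.04 to 10.1 ± 2.08 FPKM. Tsc22d3, a glucocorticoid-induced gene, fell from 7.12 ± 0.842 to 4.39 ± 1.33 FPKM. The call of Tsc22d3 was lost without the library of passage 8 or 10 (limma adjusted p = 0.088 and 0.098), at equal totals and with no filter on low values. Of 12 genes that carry cyclic AMP, glucocorticoid and serum signals to the Per genes, 0 rose, 5 fell and 7 missed the threshold, so 41.7% were called against the same 56.4%, of which 32.1% were lower. Srf, the serum response factor, fell from 29.1 ± 0.544 to 17.0 ± 3.91 FPKM and its coactivator gene Mkl1 from 14.6 ± 1.16 to 10.6 ± 1.27 FPKM. The call of Mkl1 was lost without the library of passage 8, 10 or 103 (limma adjusted p = 0.058 to 0.076).

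**Figure D5:**
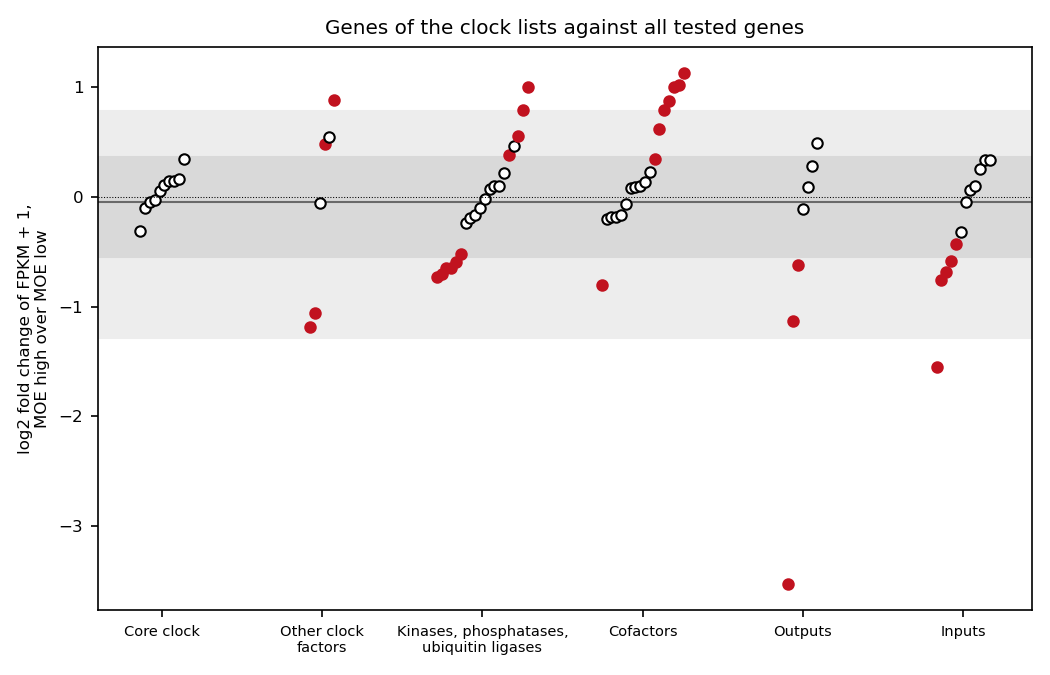
Log2 fold change of FPKM + 1 from MOE low to MOE high (vertical axis) for each tested gene of the core list and the 5 wider lists; red filled points passed the test, the grey bands run from the 25 to the 75 and from the 10 to the 90 percentile of all tested genes and the line is their median. All 10 core genes lie in the inner band, from -0.55 to 0.36, and none passed the test.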

How the data were processed

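RNA of 6 libraries, 3 per group, was sequenced by the authors from total RNA depleted of ribosomal RNA in strand-specific libraries. Per the labels, reads were aligned with TopHat2 2.0.8b to mm10 and expression was estimated with Cuffdiff 2.1.1, and the deposited values are FPKM, with 1 table per library. The heading over the values did not name the library's passage in 6 of 6 tables, so the passage was taken from the library's record. Of 23141 entries, 577 shared 236 symbols, of which the entry highest on average was used. FPKM keep no absolute depth, and whole reads were not recovered. What 1 fragment is worth, read from the lowest values and relative to passage 8, differed on the log2 scale by -0.18 and -0.15 in MOE low and by -0.36 to -0.20 in MOE high.

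MOE low and MOE high entered limma 3.58.1 (R 4.3.3, variance trend) as log2(FPKM + 1), leaving out genes averaging under 0.5 FPKM, with Benjamini-Hochberg adjustment over all genes tested and a threshold of 0.05, and the code was tested on simulated data. The members and lists were chosen with earlier results of these data known. The text names the 10 core genes, the listed clock factors, genes overlapping a core gene and, from each other list, up to 3 called genes per direction that averaged 5 FPKM or more and did not overlap between the groups, though some of these are not reported here. Calculations used Python 3.11.15, pandas 2.3.3 and scipy 1.17.1. The alternatives were leaving out each library, a block for the replicate number, 3 scalings (equal totals, upper quartile, median ratio), a test against a 2-fold change, pseudocounts of 0.1 and 0.01, a stricter adjusted p (0.01), no variance trend, and either no filter or one at 5 FPKM.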

Additional observations from a re-analysis of the deposited data

How the results depend on the processing

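Against 0 core clock genes called, 1 (Nr1d2) was higher with libraries scaled by the median ratio, and leaving out each library gave 0 to 1 higher and 0 to 1 lower (Clock). The other alternatives gave 0. Of the 63 wider genes, leaving out each library gave 10 to 18 higher and 12 to 23 lower, and the test against a 2-fold change 0 and 2. Over all genes it gave 303 higher and 907 lower, a mean of at least 5 FPKM gave 2350 lower among fewer genes, and leaving out each library 2203 to 3335 higher and 3163 to 4314 lower. Signs near 0 turned. With the median ratio the log2 fold change was 0.0031 for Per1, 0.017 for Dbp and 0.00065 for Nfil3. For Cry2 it was -0.0070 at equal totals and -0.042 with the upper quartile. Leaving out each library it ran from -0.42 to 0.18 for Per1, -0.038 to 0.26 for Per2, -0.12 to 0.25 for Cry2, -0.12 to 0.36 for Nr1d1, -0.40 to 0.17 for Dbp and -0.20 to 0.17 for Nfil3. Except where a library was left out, the cause was not tested. The median of all genes was -0.05 as deposited, -0.10 at equal totals, -0.14 with the upper quartile and 0.0045 with the median ratio. At a mean of at least 5 FPKM, Per1, Per2, Per3 and Dbp gave no value. With the replicate number as a block, 0 core genes were called, as were 17 wider genes higher and 17 lower, and 2967 and 3839 of all genes. The deviations of libraries with the same number correlated at -0.024, -0.15 and 0.12, and those with different numbers at -0.19 to 0.22. These ranges overlap, so the values cannot decide whether the numbers pair the libraries. FPKM without counts give no floor for low genes such as Arntl2.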
